A study of Mus musculus with 26 samples.

Results

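9 homeobox genes of the Six-family and the Irx family were followed through a ChIP-reChIP data set of bivalent chromatin, that is chromatin with H3K4me3 and H3K27me3 on the same nucleosome. They were Six2, Six3, Six4, Irx1, Irx2, Irx3, Irx4, Irx5 and Irx6, out of 26180 genes with a curated RefSeq start site. At each gene the region that most overlapped 1.5 kb either side of a start site was read in each of 12 region tables, 4 for E14 cells and 8 for knockout clones and their controls. The study used mononucleosomes from mouse embryonic stem cells grown in serum and LIF, and asked where both marks sit together and what the loss of DPPA2 and DPPA4 does to them. There were 26 libraries. E14 cells, a non-clonal wild-type mouse line, gave replicates 1 and 2. WT clones 57 and 58 and DKO clones 43 and 53 are clonal lines of E14, each clone being 1 line, and the DKO clones lack both Dppa2 and Dppa4. Each condition has total H3K4me3, total H3K27me3, K4-K27 (first antibody H3K4me3, then H3K27me3) and K27-K4 (the reverse order). The totals were in-line, since an aliquot of each first immunoprecipitate was kept before the second one. IgG–IgG was made once in E14 and once in WT clone 57. E14 replicates 1 and 2 were sequenced as batches A and B and all clones as batch C, so E14 and the clones cannot be told apart from their batches.

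The Six-family and Irx genes encode homeodomain transcription factors that act in early organ formation. Six-family proteins carry a conserved SIX-type domain beside the homeodomain and work with EYA co-activators and DACH co-repressors. Irx proteins belong to the TALE class of homeodomains, and their genes sit in clusters of 3, with Irx1, Irx2 and Irx4 in one and Irx3, Irx5 and Irx6 in the other. In pluripotent cells most such genes are silent, and their CpG-rich promoters are known to carry H3K27me3, laid down by Polycomb repressive complex 2, along with H3K4me3, laid down by MLL-family methyltransferases. DPPA2 and DPPA4 are small SAP-domain proteins of early embryos and stem cells that bind such promoters.

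All values are log2 RPM per kb, that is reads scaled to library size and to the length of the region. A level still depends on how wide the region is, which limits comparison across genes with regions of unlike width. For example, total H3K4me3 of Irx5 in WT clone 57 was 1.72 at its 17.25 kb E14 reChIP region and 2.90 at its 6 kb WT K4-K27 region. The depth of a library was 6.74 to 47.9 M reads, both extremes being E14 K27-K4 libraries (replicate 1 and replicate 2). The listing of 6 stem cell marker genes was read (Pou5f1, Nanog, Sox2, Esrrb, Zfp42 and Tdgf1). All 6 were listed in the total H3K4me3 tables of E14, WT and DKO, and 1, 1 and 0 of them in the total H3K27me3 tables. Of 3 primitive endoderm, 3 trophoblast and 3 fibroblast markers, 2, 1 and 3 were listed in the E14 total H3K4me3 table. That table lists 53.2% of all genes, so being listed there cannot tell stem cells from these other cell types. Dppa2 and Dppa4 kept a total H3K4me3 region at their start sites in the DKO clones, with log2 differences to WT of 0.37 ± 0.69 and 0.08 ± 0.76 (limma SE), and since the place of the deletions was not used here these promoters check nothing about the knockout.

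All 9 genes had a region in both reChIP tables of E14, with the same coordinates in both orientations. In mm10 these were chr17:85677901-85695000 for Six2, chr17:85607251-85634850 for Six3, chr12:73109701-73114950 for Six4, chr13:71950801-71970000 for Irx1, chr13:72621001-72642750 for Irx2, chr13:73256251-73276650 for Irx4, chr8:91795351-91809900 for Irx3, chr8:92353351-92370600 for Irx5 and chr8:92669401-92682000 for Irx6. Each covers a RefSeq start site of its gene and sequence on both sides of it. Six4 had the shortest region, 5.25 kb, and Six3 the longest, 27.6 kb. The Six3 region also holds the start of Six3os1, that of Irx2 the start of Gm20554 and that of Irx5 the start of Crnde, and reads of such neighbours cannot be told apart from those of the gene. All 9 genes were also listed in both reChIP tables of WT and of DKO. Of all 26180 genes, 58.7% and 66.2% had a region in the K4-K27 and K27-K4 tables of E14, 59.4% and 33.7% in those of WT and 57.8% and 32.1% in those of DKO.

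The totals were listed less evenly. The E14 total H3K4me3 table lists 8 of the 9 genes (not Irx1), and the table of E14 total H3K27me3 lists 4 of the 9 (Six2, Irx1, Irx4 and Irx6). For WT, 8 (not Six3) and 7 (not Six2 or Six4) were listed in these totals, and for DKO 7 (not Six3 or Irx1) and 5 (not Six2, Six3, Six4 or Irx4). Over all genes, a total H3K4me3 region was listed for 53.2% in E14, 60.2% in WT and 56.1% in DKO, and one of total H3K27me3 for 12.1%, 15.8% and 17.6%. A gene with no region has no value in that table, and its level in that ChIP was read at the reChIP region.

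Promoter sequence from RefSeq (GRCm38.p6) was at hand for 6 of the 9 genes (Six2, Six3, Six4, Irx2, Irx3 and Irx4). The 250 bases before the start are shown for Six4, which stood apart in both totals, for Six2, the Six-family gene with the most H3K27me3 in E14 replicate 1, and for Irx3, which led the K27-K4 levels in E14. They run 5′ to 3′ on the strand of the gene, the minus strand for all 3, at chr12:73113426-73113675 (the upstream of 2 Six4 starts), chr17:85688255-85688504 and chr8:91801655-91801904. Capitals mark CpG dinucleotides.
Six4: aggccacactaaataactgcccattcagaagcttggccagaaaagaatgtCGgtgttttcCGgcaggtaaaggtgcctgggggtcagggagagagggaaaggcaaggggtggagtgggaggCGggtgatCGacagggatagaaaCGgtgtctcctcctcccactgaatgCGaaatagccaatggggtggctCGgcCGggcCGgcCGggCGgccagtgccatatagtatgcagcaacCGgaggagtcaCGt
Six2: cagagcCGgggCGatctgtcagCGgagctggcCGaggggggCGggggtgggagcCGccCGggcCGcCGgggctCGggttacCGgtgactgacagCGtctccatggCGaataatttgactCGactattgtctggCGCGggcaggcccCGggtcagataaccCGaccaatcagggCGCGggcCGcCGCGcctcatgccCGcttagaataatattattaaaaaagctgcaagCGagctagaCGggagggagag
Irx3: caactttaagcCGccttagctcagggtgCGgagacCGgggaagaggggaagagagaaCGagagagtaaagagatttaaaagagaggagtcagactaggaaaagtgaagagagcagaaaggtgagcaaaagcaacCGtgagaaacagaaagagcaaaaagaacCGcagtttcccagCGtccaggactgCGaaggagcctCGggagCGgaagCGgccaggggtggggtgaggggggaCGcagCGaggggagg
The windows hold 13, 26 and 13 CpGs, against a median of 6 over 32851 such windows of the genome. Six2 had more CpGs than 90.4% of windows, and Six4 and Irx3 each more than 68.5%. Of 3 motifs searched on both strands, GGGCGG was in the Six4 and Six2 windows and not in that of Irx3, CCAAT in the Six4 and Six2 windows, and TATAAA in none of the 3. Over all windows GGGCGG was in 32.7%, CCAAT in 33.8% and TATAAA in 12.4%. The downstream Six4 start has a window of its own, with 15 CpGs (more than 72.7% of windows), GGGCGG and no CCAAT.

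The level of each mark was next compared among the 9 genes at the E14 reChIP regions, to see which genes share a profile. Over the 24 libraries other than IgG–IgG, Irx2 lay nearest to the mean profile of the 9 genes, at a Euclidean distance of 0.76 in log2 units, and Six4 farthest, at 7.16. Irx6 was the next farthest at 3.45, and the other 6 lay between 1.57 and 2.35. Of 15354 other genes with a region in the E14 K4-K27 table, the 5 nearest to that mean profile were En2 (0.44), Cxcl12 (0.72), Gm20554 (0.76, in the Irx2 region), Bmp7 (0.77) and Myo16 (0.78). En2 is itself a homeobox gene of the midbrain and hindbrain, Cxcl12 a chemokine and Bmp7 a secreted growth factor.

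**Figure D1:**
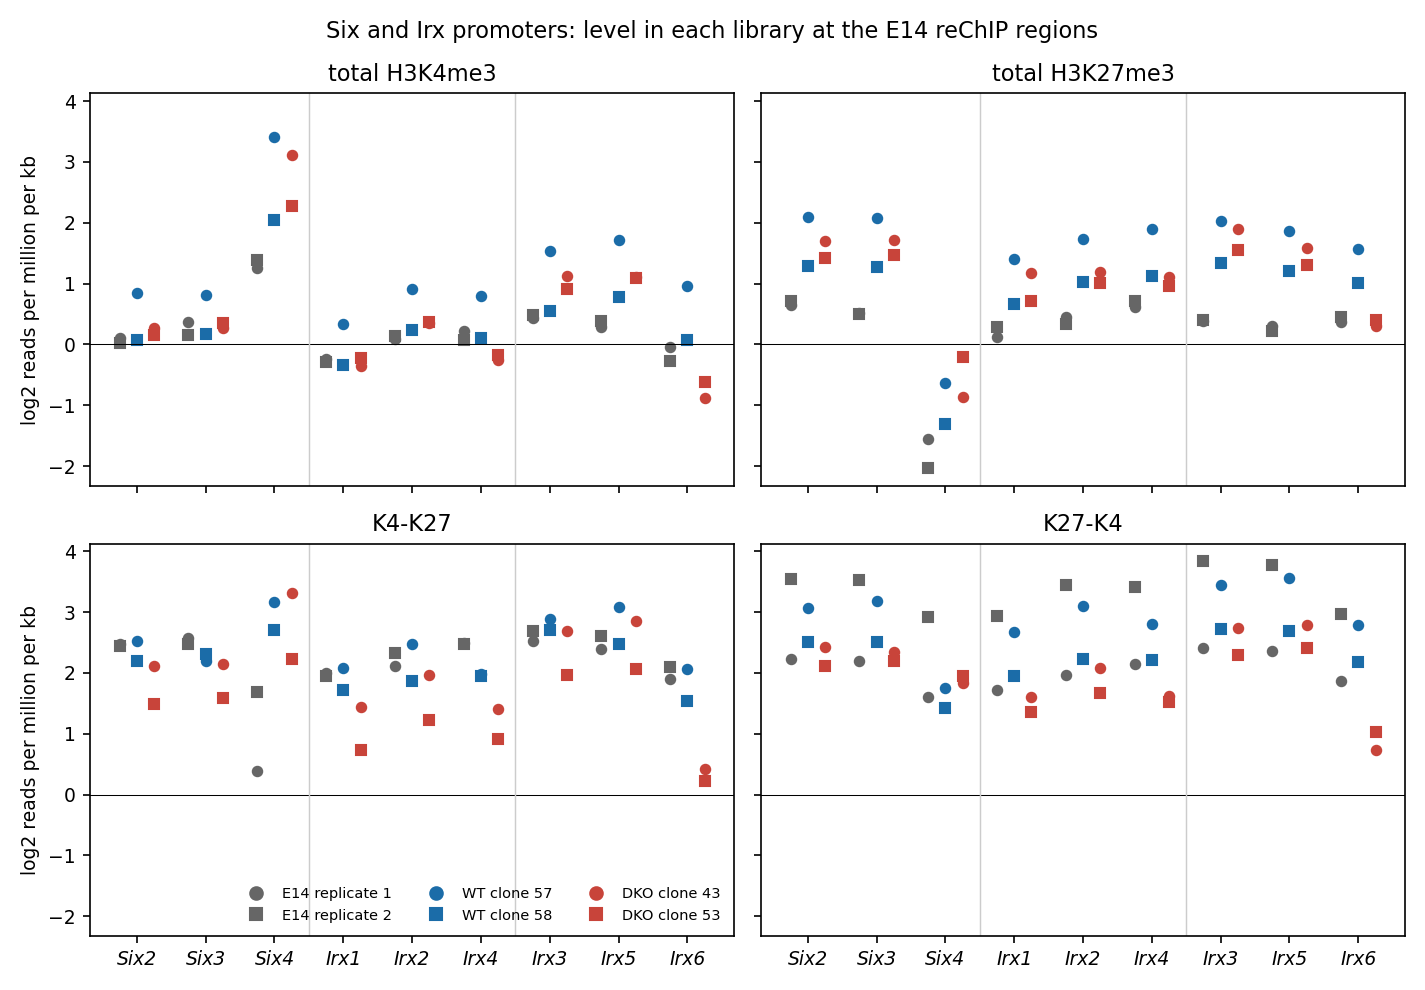
Log2 RPM per kb (y axis) at the E14 reChIP region of each gene (x axis) in 4 ChIPs, 1 panel each; each point is 1 library, coloured by condition, with E14 replicates and clones told apart by marker. Six4 is the highest gene in total H3K4me3 and the lowest in total H3K27me3 in all 6 libraries, and Irx6 is the lowest in both DKO libraries of both reChIPs.

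Six4, which acts in muscle, kidney and sensory placodes, had a different balance of totals from the other genes. Its total H3K4me3 was 1.25 and 1.39 in E14 replicates 1 and 2, 3.42 and 2.05 in WT clones 57 and 58, and 3.12 and 2.27 in DKO clones 43 and 53. That was the highest of the 9 genes in each of these 6 libraries at the E14 reChIP regions, of which that of Six4 is the shortest. At the regions of the WT total H3K4me3 table, which does not list Six3, Six4 was still the highest in the clones and by less. There Six4 had 3.67 and the next gene, Irx6, 2.82 in WT clone 57. In DKO clone 53 Six4 had 2.53 and the next gene, Irx2, 2.11. Total H3K27me3 of Six4 at the E14 reChIP region was −1.55 and −2.03 in E14, −0.64 and −1.31 in WT and −0.86 and −0.21 in DKO. That was the lowest of the 9 genes in each of the 6 libraries, and below the IgG–IgG level of the same region each time (−0.32 in E14 and −0.12 in WT clone 57, the latter also set against DKO). The other 8 genes had total H3K27me3 between 0.13 and 2.09, and each of their 48 values was above IgG–IgG. The depth behind the Six4 value was low, 22 and 41 reads in E14. These values pick out Six4 after they were seen, so they are given as a description with no test.

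Total H3K4me3 exceeded total H3K27me3 at Six4 by 2.48 to 4.06 in the 6 library pairs. At the other 8 genes the difference ran from −1.53 to 0.15, and 45 of 48 values were below 0. Among all regions of the E14 K27-K4 table, the total H3K27me3 of Six4 was above 12.5% to 18.2% of regions in E14, 24.2% to 39.4% in WT and 38.8% to 54.6% in DKO. The 7 genes other than Six4 and Irx6 were above 82.0% to 98.5% in E14, 94.0% to 99.9% in WT and 91.2% to 99.9% in DKO. For total H3K4me3 these 7 genes were in the middle of all regions, above 27.1% to 69.2% of regions in WT, where Six4 was above 95.3% to 95.4%.

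**Figure D2:**
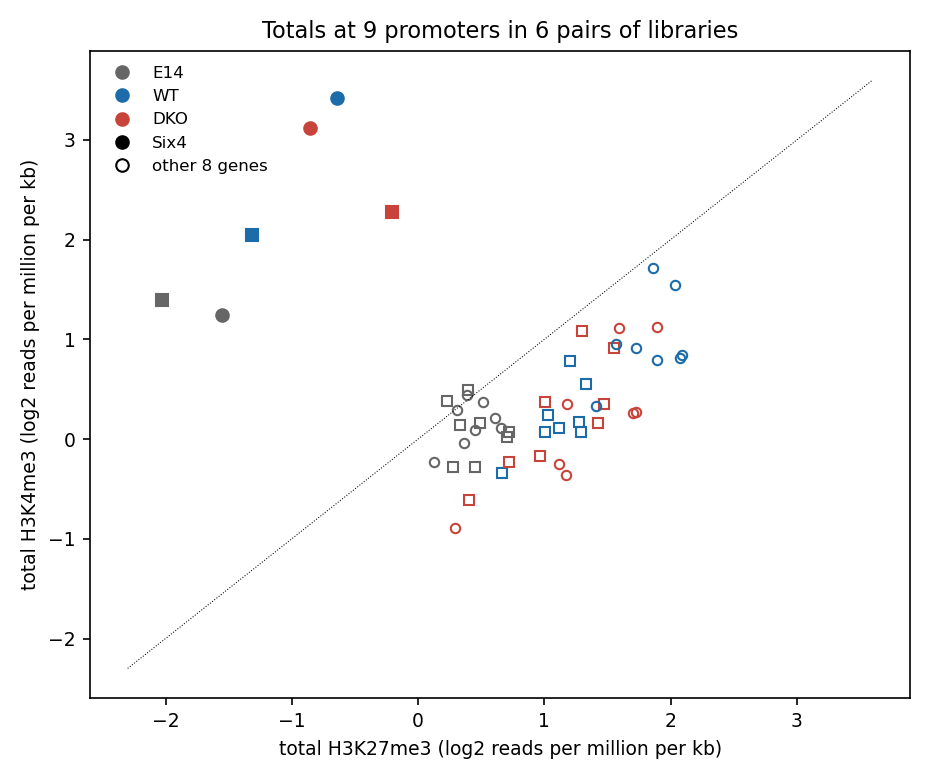
Total H3K4me3 (y axis) against total H3K27me3 (x axis), both in log2 RPM per kb, at the E14 reChIP regions of the 9 genes in 6 pairs of libraries; circles are E14 replicate 1, WT clone 57 and DKO clone 43, squares the other libraries, and the dotted line marks equal values. Six4 (filled) lies above the line by 2.48 to 4.06, and 45 of the 48 values of the other genes lie below it.

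Irx3 and Irx5, both known for roles in limb and heart patterning, led the K27-K4 levels at the E14 reChIP regions. Irx3 had 2.41 and 3.83 in E14, 3.45 and 2.72 in WT and 2.74 and 2.30 in DKO. Irx5 had 2.36 and 3.77 in E14, 3.55 and 2.68 in WT and 2.79 and 2.41 in DKO. The values of both genes overlapped in every condition, so their order does not hold against the spread between libraries. Six4 had the lowest K27-K4 level in E14 and WT, with 1.60 and 2.91 in E14 and 1.76 and 1.42 in WT. In DKO it had 1.83 and 1.95, and Irx6 was lower, with 0.74 and 1.03. K4-K27 levels of the 8 genes other than Six4 ran from 1.90 to 2.68 in E14, 1.54 to 3.08 in WT and 0.23 to 2.85 in DKO. In K4-K27 at the E14 reChIP regions, Six4 was the lowest of the 9 in both E14 replicates (0.38 and 1.68). There it was the highest in all 4 clones (3.16, 2.70, 3.32 and 2.23), although Irx3 also stood at 2.70 in WT clone 58. At the WT K4-K27 regions Irx5 was above Six4 in all 4 clones, at 4.38 and 3.54 in WT and 4.09 and 3.15 in DKO. Six4 had 3.63, 3.16, 3.74 and 2.63 there. In K27-K4 of WT clone 57 at these regions, Irx6 (4.39), Irx2 (4.12) and Irx1 (3.87) were above Irx3 (3.75), and Irx5 (4.64) led. In WT clone 58 Irx6 (3.66) was above both Irx5 (3.61) and Irx3 (2.98).

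Each reChIP was then compared with the in-line total that shares its first antibody. The regions read come from the reChIP tables, which list places where the reChIP is high, so a higher reChIP was favoured in advance. The paper describes the in-line totals as noisier, likely because of their lower starting material. A difference therefore also holds the background of the total, and its cause was not tested. All values of each reChIP at the 9 genes were above IgG–IgG of the same region, which was −0.74 to −0.15 in E14 and −0.95 to 0.36 in WT clone 57. Of the totals other than Six4 H3K27me3, 4 values were not, all total H3K4me3: Six2 in WT clone 58 and both DKO clones, and Irx4 in DKO clone 43. In E14, K4-K27 was called higher than total H3K4me3 at 8 of the 9 genes, by 2.10 to 2.40 on the log2 scale (limma, adjusted p = 0.0293 to 0.0317), where 6.54% of the 38918 regions tested were called higher. A call needs a log2 difference above 1 and a Benjamini-Hochberg adjusted p under 0.05 over all regions tested. Six4 was the exception, at −0.29 ± 0.63 (limma SE, adjusted p = 0.773). All 8 calls were lost without E14 total H3K4me3 replicate 1, without total H3K4me3 replicate 2 and without K4-K27 replicate 1, and also without a variance trend, and 5 were left without K4-K27 replicate 2, where 9.56% of regions were called higher. After centring of the libraries on their medians, the 8 were still called, beside 12.4% of all regions.

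K27-K4 was called higher than total H3K27me3 in E14 at all 9 genes, by 2.01 (Irx6) to 4.05 (Six4), where 53.8% of regions were called higher. The difference at Six4 was 4.05 ± 0.63 (limma SE, adjusted p = 1.16e-05), the largest of the 9, over total values below IgG–IgG. The median difference over all regions was 1.63, and after the same centring 3 of the 9 genes were called, Six4 (2.67), Irx5 (1.42) and Irx3 (1.35), beside 23.8% of all regions.

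In WT, K4-K27 was called higher than total H3K4me3 at 1 of the 9 genes, Irx1 (2.15 ± 0.67, limma SE, adjusted p = 0.0427), where 3.77% of 57443 regions were called higher. The 7 other genes besides Six4 had differences of 1.48 to 2.04, and Six4 had 0.23. The libraries of one clone come from the same chromatin, and with the clone as a block the count was 8 of 9, all but Six4, with standard errors of 0.21 to 0.34 in place of 0.66 to 0.70, while 15.6% of all regions were then called higher. K27-K4 was called higher than total H3K27me3 at 5 of 9 genes in WT (Six4, Irx1, Irx2, Irx5 and Irx6), where 30.7% of regions were called higher, and at 9 of 9 with the block, where the share over all regions was 38.6%. With centred libraries no gene was called for K4-K27, and Six4, Irx1 and Irx5 were called for K27-K4, beside 15.3% of all regions. At the regions of the E14 reChIP tables the K4-K27 count was 0 (Irx1 at 1.90, limma, adjusted p = 0.157) and the K27-K4 count 1, Six4, where 14.3% of regions were called higher. Without WT total H3K4me3 clone 57 the count for K4-K27 was 8, beside 6317 of the 57443 regions called higher, and it was 0 without any one of the other 3 libraries. For K27-K4 it was 1 without total H3K27me3 clone 57, 0 without total H3K27me3 clone 58 or K27-K4 clone 57, and 5 without K27-K4 clone 58, where 21.1% of regions were called higher.

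The DKO libraries were read at the regions of the WT reChIP tables. In DKO, K4-K27 was called higher than total H3K4me3 at 7 of 9 genes, by 1.31 to 1.64, where 9.13% of regions were called higher. Irx6 had 1.08 (adjusted p = 0.113) and Six4 0.06. Without either DKO total H3K4me3 clone, and also without a variance trend or with centred libraries, 0 were called, and without K4-K27 clone 43 or clone 53 it was 5 or 8, beside 6.57% or 17.2% of all regions. At the E14 reChIP regions 5 were called, Irx1 (1.38, limma, adjusted p = 0.0524) and Irx2 (1.24, adjusted p = 0.0585) not, where 4.38% of regions were called higher. K27-K4 was called higher than total H3K27me3 at 5 of 9 genes (Six4, Irx1, Irx2, Irx5 and Irx6), by 1.10 to 2.57, where 34.0% of regions were called higher. The call of Irx6 there was lost with the clone as a block (limma, adjusted p = 0.0585), 2 (Six4 and Irx5) were called with centred libraries (27.6% of all regions) and at the E14 reChIP regions (28.5%), 3 without a variance trend (29.4%), and 2 without total H3K27me3 clone 53 (30.4%) or without K27-K4 clone 43 (25.8%). Library by library at the E14 reChIP regions, K4-K27 minus total H3K4me3 was −0.87 to 0.66 at Six4 and 0.84 to 2.43 at the other 8 genes, while K27-K4 minus total H3K27me3 was 2.16 to 4.94 at Six4 and 0.43 to 3.54 at the others.

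The orders of the 2 antibodies were compared next, to see whether the level at a promoter changed with the order. K27-K4 minus K4-K27 was called at 0 of 9 genes in E14, 0 of 9 in WT and 0 of 9 in DKO (limma), where 0.0822%, 32.0% and 23.9% of regions were called. At an unadjusted p under 0.05 there were 0, 1 (Six4) and 1 (Irx6) of 9. At Six4 the values in each replicate or clone at the E14 region were 1.21 and 1.23 in E14, −1.41 and −1.28 in WT and −1.49 and −0.28 in DKO. Both E14 replicates were thus above 0 and all 4 clones below it. The fitted differences at Six4 were 1.22 ± 0.63 in E14 (adjusted p = 0.481) and −1.39 ± 0.66 in WT (adjusted p = 0.0897, limma SE). In DKO the fitted difference was −0.89 ± 0.44 (limma SE, adjusted p = 0.174). WT and DKO clones were both fitted at the WT K4-K27 region. Leaving out 1 library, the difference at Six4 ran from 0.56 to 1.88 in E14, −1.62 to −1.15 in WT and −1.44 to −0.34 in DKO. With the clone as a block, Six4 was called lower in WT (limma, adjusted p = 0.00593), as were 23.2% of all regions.

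The difference between E14 and WT in that contrast, tested only after its values were seen, was 2.57 ± 1.03 at Six4 (limma, adjusted p = 0.0642) and was not called, where 17.9% of 38918 regions were called. With the replicate or clone as a block it was called at Six4 (2.57 ± 0.49, limma, adjusted p = 0.000720) and at none of the other 8, where 26.5% of regions were called. At the other 8 genes it ran from −0.26 to 0.22. After centring of the libraries on their medians it was 1.74 at Six4 (adjusted p = 0.0603) and −1.09 to −0.61 at the others. In E14 the 8 other genes had orientation differences of 0.29 to 0.56, with replicate 1 below 0 and replicate 2 above 0 at each of them. The median over all E14 regions was 0.67, and after centring 7 of these 8 were below 0 (−0.26 to −0.04) and Irx5 was at 0.01. Without K4-K27 replicate 2 and without K27-K4 replicate 1 there were 1 and 5 genes called higher in E14, where 22.9% and 3.39% of all regions were. In DKO, 1 gene was called higher without K4-K27 clone 43 and 1 lower without K4-K27 clone 53, beside 8.79% and 22.8% of all regions.

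**Figure D3:**
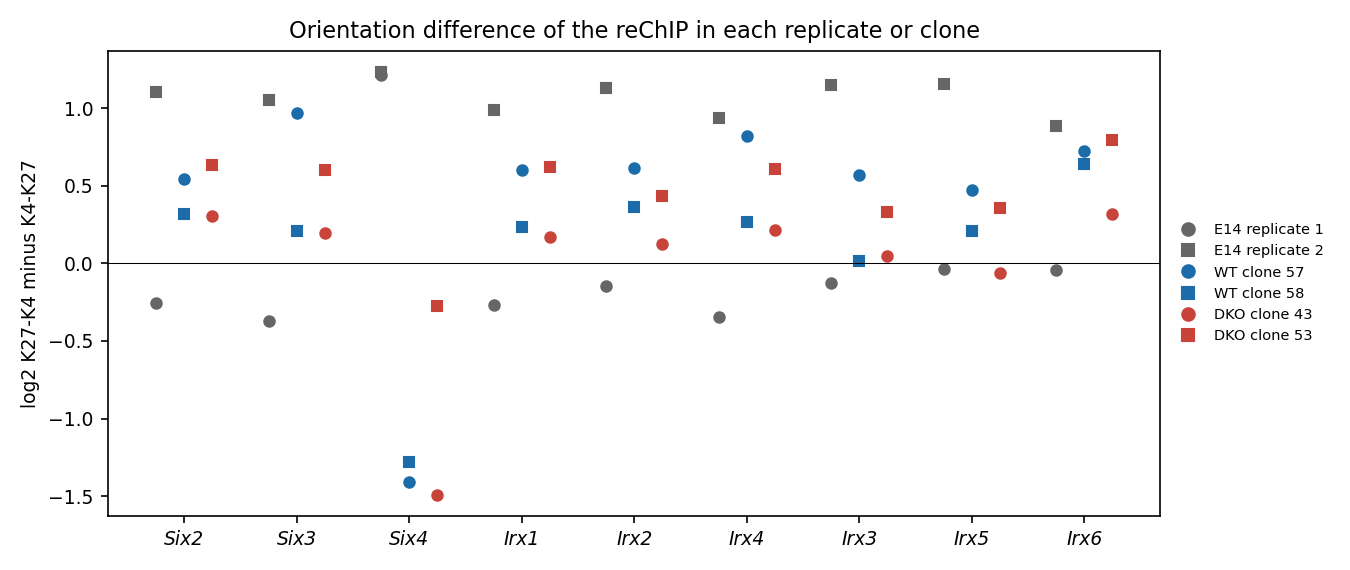
Log2 difference K27-K4 minus K4-K27 (y axis) at the E14 reChIP region of each gene (x axis); each point is 1 E14 replicate or 1 clone, coloured by condition. Six4 is above 0 in both E14 replicates (1.21 and 1.23) and below 0 in all 4 clones (−1.49 to −0.28).

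DKO clones were compared with WT clones for each ChIP, to find which of these promoters change without DPPA2 and DPPA4. Irx6 fell in both reChIPs and no other gene was called in any ChIP. Irx6 lies last in the chromosome 8 cluster, 316 kb from the start of Irx5, and is known from the retina, where it acts in bipolar neurons. In K27-K4, at its WT table region (8.7 kb), Irx6 had 3.27 and 2.60 in WT clones 57 and 58 and 1.08 and 1.35 in DKO clones 43 and 53. In K4-K27, at a 2.7 kb region, it had 3.81 and 2.90 in WT and 1.74 and 0.87 in DKO. Both DKO clones were below both WT clones in either order, as they were at 30.8% of all regions in K27-K4 and 19.2% in K4-K27.

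Irx6 fell by 1.72 ± 0.45 in K27-K4 (limma SE, 2 clones per genotype, adjusted p = 0.0160), a 3.29-fold lower level, and by 2.05 ± 0.59 in K4-K27 (adjusted p = 0.0434), 4.14-fold lower. Over all regions, 2.24% of 59260 were called lower in K27-K4 and 1.19% of 53855 in K4-K27. At the member promoters that is 1 of 9 in each. The call in K4-K27 was lost without any one of the 4 libraries: the difference was −1.60 without WT clone 57, −2.50 without WT clone 58, −2.48 without DKO clone 43 and −1.61 without DKO clone 53. The call in K27-K4 was lost without DKO clone 43 (−1.58) and without DKO clone 53 (−1.85), and both calls were lost without a variance trend (adjusted p = 0.130 in K27-K4 and 0.0909 in K4-K27). At the region of the E14 K27-K4 table the call in K4-K27 was also lost (−1.48, limma, adjusted p = 0.101), and Irx6 was called in K27-K4 (−1.60, adjusted p = 0.00591).

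The totals at Irx6 moved in the same direction and were not called. Total H3K4me3 was 2.82 and 1.58 in WT and 0.31 and 0.48 in DKO, a difference of −1.80 ± 0.65 (limma, adjusted p = 0.120). Total H3K27me3 was 1.85 and 1.33 in WT and 0.43 and 0.62 in DKO, a difference of −1.07 ± 0.41 (limma, adjusted p = 0.137). Both DKO clones were below both WT clones in either total, as at 12.6% of all regions in H3K4me3 and 18.5% in H3K27me3. In these ChIPs 0 of 8 and 0 of 7 genes with a region were called, where 2.47% of 64063 and 1.78% of 53286 regions were called lower, and 1 gene in each, Irx6, had an unadjusted p under 0.05. limma voom on the recovered reads also called 0 in both. After centring, Irx6 was called in total H3K4me3 (−1.83, limma, adjusted p = 5.82e-10), where 5.07% of regions were called lower. Leaving out 1 library, the difference of Irx6 in total H3K4me3 ran from −2.42 to −1.18. Between 71 and 280 reads stood behind the clone values of total H3K4me3, and between 64 and 349 behind those of K4-K27.

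**Figure D4:**
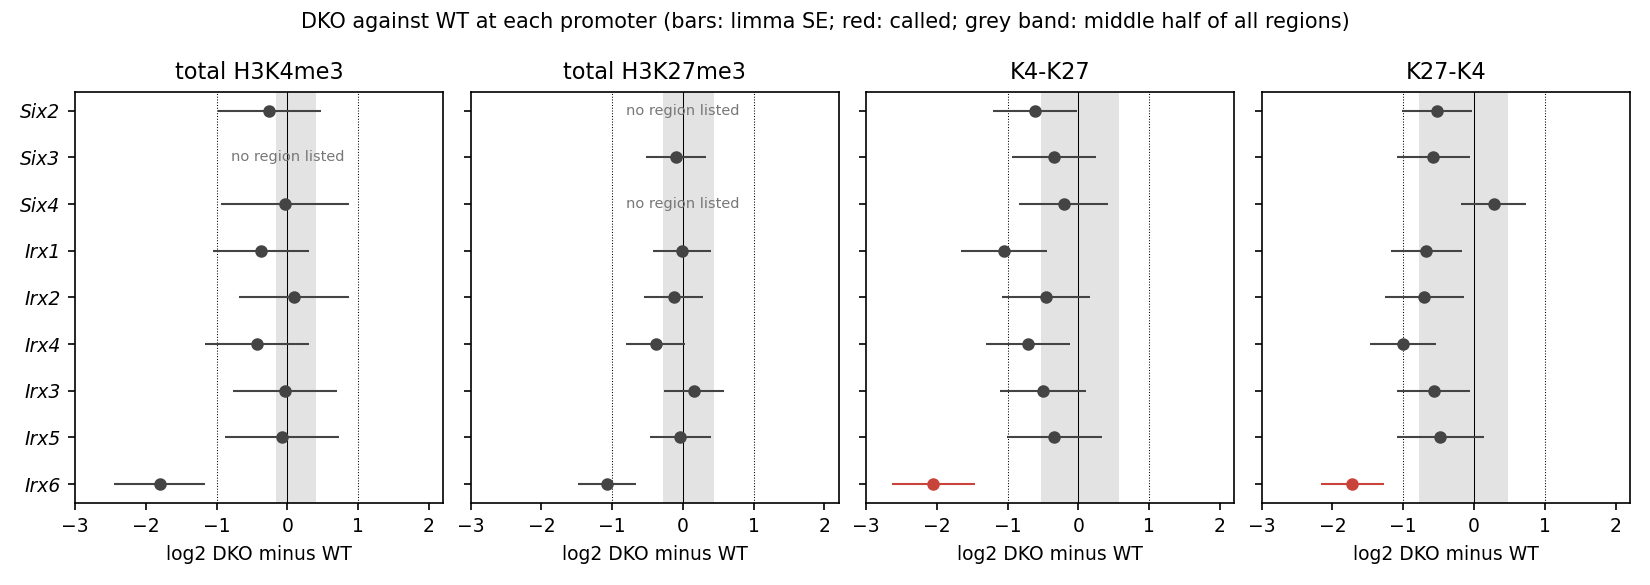
Log2 difference DKO minus WT (x axis) for each gene (y axis) in 4 ChIPs, 1 panel each; points are limma estimates from 2 clones per genotype, bars 1 SE, dotted lines the threshold of 1, and the grey band runs between the quartiles of all regions tested. Irx6 is the only gene called (red), at −2.05 in K4-K27 and −1.72 in K27-K4.

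None of the other 8 genes was called in either reChIP. In K4-K27 their differences were from −1.05 (Irx1) to −0.21 (Six4). In K27-K4 they ran from −0.999 (Irx4) to −0.47 (Irx5), with Six4 at 0.28. Irx4, known from the ventricles of the heart, had 3.07 and 2.48 in WT and 1.85 and 1.71 in DKO in K27-K4, a difference of −0.999 ± 0.47 (limma, adjusted p = 0.231). Irx1 had 3.66 and 3.03 in WT and 2.64 and 1.95 in DKO in K4-K27, a difference of −1.05 ± 0.60 (limma, adjusted p = 0.400). With Irx6 counted, both DKO clones were below both WT clones at 5 of the 9 genes in each reChIP (Six2, Six3, Irx1, Irx4 and Irx6), beside the shares of all regions given above for Irx6, and at Six4 both were above in K27-K4, as at 21.1% of all regions. Without WT clone 58, 4 genes were called lower in K27-K4, where 9.29% of all regions then were. In the totals the genes other than Irx6 ran from −0.43 to 0.10 for H3K4me3 and from −0.39 to 0.16 for H3K27me3, with the lowest adjusted p at 0.727.

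The 3 genes of the Irx6 cluster were then set against each other within each library, a measure that does not depend on how libraries are scaled. At the E14 reChIP regions, Irx6 minus the mean of Irx3 and Irx5 in K27-K4 was −0.52 and −0.83 in E14, −0.71 and −0.52 in WT and −2.02 and −1.33 in DKO. In K4-K27 it was −0.56 and −0.56 in E14, −0.91 and −1.05 in WT and −2.35 and −1.78 in DKO. In total H3K4me3 it was −0.41 and −0.71 in E14, −0.68 and −0.60 in WT and −2.01 and −1.61 in DKO. In total H3K27me3 it was 0.01 and 0.14 in E14, −0.38 and −0.26 in WT and −1.44 and −1.02 in DKO. Both DKO clones were below both WT clones and both E14 replicates in each of the 4 ChIPs. With 2 clones per genotype an exact permutation test cannot go below p = 0.333, so no test was made of this gap.

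The same shift showed in the place of Irx6 among all regions of the E14 K27-K4 table. Irx6 was above 95.0% to 96.0% of regions in WT K27-K4 and above 77.4% to 84.4% in DKO. In K4-K27 it was above 72.0% to 73.2% in WT and 48.6% to 51.1% in DKO, in total H3K27me3 98.1% to 98.3% and 78.6% to 82.7%, and in total H3K4me3 46.1% to 52.4% and 23.1% to 26.3%. Irx3 in the same cluster was above 98.5% to 99.0% of regions in WT K27-K4 and 97.6% to 98.3% in DKO, and in K4-K27 above 86.8% to 95.8% in WT and 82.5% to 84.7% in DKO. Lower percentages in DKO were not limited to Irx6. Irx4 was at 95.1% to 96.3% in WT K27-K4 and 89.7% to 90.6% in DKO. Irx1 was at 72.1% to 76.7% in WT K4-K27 and 59.0% to 64.6% in DKO. Six4 went the other way in K27-K4, at 87.2% to 89.4% in WT and 91.5% to 94.9% in DKO. The share of all regions whose percentages shift in this way was not tested.

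**Figure D5:**
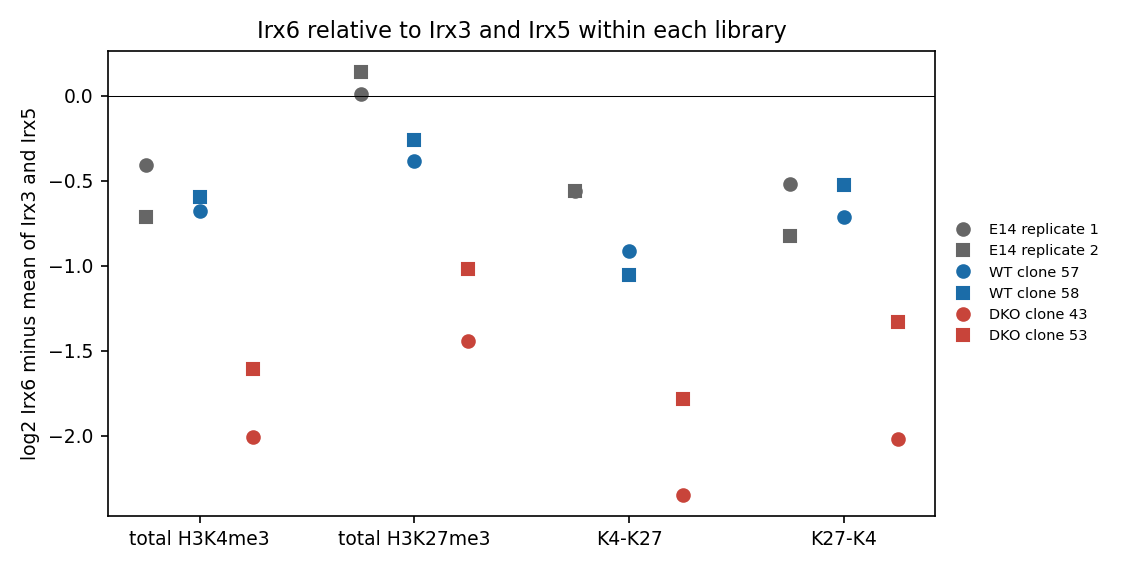
Log2 level of Irx6 minus the mean of Irx3 and Irx5 (y axis) in each library, for the 4 ChIPs (x axis), at the E14 reChIP regions; each point is 1 library, coloured by condition. Both DKO clones lie below both WT clones in each ChIP, at −2.02 and −1.33 against −0.71 and −0.52 in K27-K4.

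Genes of one cluster were also compared over all 6 libraries of a ChIP, at the regions of the E14 table of that ChIP. Of 7 pairs in 4 ChIPs, 20 could be tested, since a table that lacks a gene gives no pair. After Benjamini-Hochberg adjustment over these 20, 0 pairs passed in an exact two-sided sign-flip permutation test, whose smallest p with 6 libraries is 0.0313. At that smallest p there were 9 pairs, each with one direction in 6 of 6 libraries and an adjusted p of 0.0694. Irx6 was below Irx3 by 1.20 ± 0.68 (SD, n = 6, exact permutation adjusted p = 0.0694) in K4-K27 and by 0.98 ± 0.57 in K27-K4, in 6 of 6 libraries each. It was below Irx5 by 1.20 ± 0.77 and 0.998 ± 0.61, also in 6 of 6. The SD over the 6 libraries holds the wider gap of the DKO clones. The order depends on the regions. At the WT K4-K27 regions (2.7 kb for Irx6, 10.35 kb for Irx3) Irx6 was above Irx3 in K4-K27 of WT clone 57 (3.81 against 3.27). It was also above Irx3 in K27-K4 of WT clones 57 and 58 (4.39 against 3.75 and 3.66 against 2.98). In K4-K27 of WT clone 58 and in both reChIPs of both DKO clones it was below Irx3. Against Irx5 it was above only in K27-K4 of WT clone 58 (3.66 against 3.61).

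Irx3 and Irx5, whose starts lie 556 kb apart, had reChIP levels within a mean of 0.02 of each other, with differences per library of −0.20 to 0.23 in K4-K27 and −0.12 to 0.06 in K27-K4. In total H3K4me3 Irx3 was below Irx5 by 0.69 ± 0.37 (SD, n = 6) in 6 of 6 libraries (exact permutation, adjusted p = 0.0694), at regions of 7.35 and 4.5 kb in the H3K4me3 table. At the wider E14 K27-K4 regions the mean difference was −0.051, and its sign varied between libraries. Six2, which keeps nephron progenitors of the kidney, and Six3, which acts in forebrain and eye, lie 67.4 kb apart. Their reChIP levels differed by −0.12 to 0.32 in K4-K27 and by −0.10 to 0.08 in K27-K4. In the chromosome 13 cluster, Irx1 was below Irx2 by 0.34 ± 0.18 in K4-K27 and 0.37 ± 0.11 in K27-K4 (SD, n = 6), in 6 of 6 libraries each (exact permutation, adjusted p = 0.0694). Irx2 was above Irx4 by 0.54 ± 0.50 in total H3K4me3 in 6 of 6 libraries, at regions of 5.40 and 6.15 kb, and by 0.22 at the E14 K27-K4 regions, where 1 of 6 libraries had Irx4 higher. In the reChIPs Irx2 was above Irx4 by 0.12 ± 0.39 and 0.13 ± 0.23.

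The network of the Six-family genes was read from a list of 9 other genes: Six5 and Six6, the co-activators Eya1 to Eya4, the co-repressors Dach1 and Dach2, and Mkx, a TALE homeobox gene related to Irx. All 9 were listed in both reChIP tables of E14. Of 34 tests of DKO against WT in the 4 ChIPs, 0 were called (limma) and 2 had an unadjusted p under 0.05, both at Eya2. Eya2 was at −1.31 ± 0.42 in K27-K4 (limma SE, adjusted p = 0.0883) and at −1.45 ± 0.59 in K4-K27 (adjusted p = 0.192).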

How the data were processed

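Reads were trimmed and aligned to the mouse genome by the authors, who marked duplicates and kept them in the values, and whose processing notes name Trim Galore 0.6.6, BWA 0.7.13, Picard 2.6.0, SAMtools 1.9, MACS2, deepTools 3.5.0 and the builds GRCm38.p6 and mm10. The deposited values are log2 RPM per kb (reads scaled to library size and region length) for the regions of 12 tables, as the authors wrote them. Totals per library were 6.74 to 47.9 M reads, recovered from the steps of the values, and limit the precision at regions of few reads. Values entered as 0.9 read stand for 0 reads. A further 32 columns that match no sample were not used.

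The members and lists were chosen with earlier results of these data known. Named were the 9 members, 9 network genes (1 further gene of that list is not reported here), Dppa2, Dppa4, cell type markers and the 5 genes nearest in profile. A gene was read at the region most overlapping 1.5 kb either side of a RefSeq start site. Contrasts were fitted across all regions with limma 3.58.1 in R 4.3.3 (two-sided, variance trend, robust), with Benjamini-Hochberg adjustment, and tested on simulated data. Cluster pairs used an exact sign-flip permutation test (Python 3.11.15). The E14 replicates are separate cultures by the methods, and 2 clones stand for each genotype, so p-values measure the spread between cultures or clones. Libraries of one replicate number or clone share chromatin, since the totals are aliquots of the first immunoprecipitate, and their deviations from group means correlated by −0.186 to 0.440 in E14, −0.0339 to 0.302 in WT and −0.0654 to 0.137 in DKO. Alternatives were centring, no variance trend, the replicate block, other regions, voom on recovered reads, background subtraction and leaving out each library.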

Additional observations from a re-analysis of the deposited data

Results flagged for a closer look

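At Six4 the orientation difference, K27-K4 minus K4-K27, was above 0 in both E14 replicates and below 0 in both WT clones, and E14 exceeded WT by 2.57 (limma, adjusted p = 0.0642, not past the threshold, and 0.000720 with the replicate or clone as a block). Both DKO clones were also below 0, and E14 exceeded DKO by 2.11, a difference that was not tested. E14 and the clones were sequenced in different batches, so cell line and batch cannot be told apart here.

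At Irx3, total H3K4me3 minus total H3K27me3 was above 0 in both E14 replicates and below 0 in all 4 clones. E14 exceeded WT by 0.71 and DKO by 0.78, and neither difference was tested. At the other 7 genes besides Six4 this quantity was also higher in E14, by 0.21 to 0.95 over WT and 0.41 to 1.05 over DKO.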

How the results depend on the processing

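In all, 732 alternative values of 72 results were computed. The orientation difference between E14 and WT, with its centring and its block, and the regions of the E14 tables as an alternative for the clones were chosen after seeing the data. With centred libraries the genes called were 1 in DKO against WT total H3K4me3, 3, 3 and 2 in K27-K4 against total H3K27me3 in E14, WT and DKO, and 0 in K4-K27 against total H3K4me3 in both WT and DKO. Centring moved the share of calls that were higher from 94.7% to 60.1% for K4-K27 against total H3K4me3 in E14, 98.2% to 74.9% for K27-K4 against total H3K27me3 in E14, 34.0% to 47.3% for the orientations in WT, and 97.0% to 67.3% and 93.2% to 61.5% for K4-K27 against total H3K4me3 in WT and DKO, where 49 and 39 calls were left. Without a variance trend 0 genes were called in DKO against WT K4-K27 and K27-K4 and in K4-K27 against total H3K4me3 in E14, WT and DKO, and 3 in K27-K4 against total H3K27me3 in DKO. With the replicate block 1 gene was called in the WT orientations, 8 in WT K4-K27 against its total and 9 in WT K27-K4 against its total, and apart from Irx6 in DKO and the orientation difference between E14 and WT at Six4 the block changed no other call. At regions of the E14 tables the counts were 0 in DKO against WT K4-K27, 0 and 1 in WT K4-K27 and K27-K4 against their totals, and 5 and 2 in DKO K4-K27 and K27-K4 against their totals. Regions with identical coordinates in both WT reChIP tables, 332 in number, included none of the regions read at the 9 genes, whose regions in these tables differ in extent. The cause of these changes was not tested.

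Leaving out 1 library, the genes called in DKO against WT ranged from 0 to 1 in total H3K4me3, stayed at 0 in K4-K27 and ranged from 0 to 4 in K27-K4. The orientations gave 0 to 5 in E14 and 0 to 1 in DKO, K4-K27 against its total 0 to 5 in E14, 0 to 8 in WT and 0 to 8 in DKO, and K27-K4 against its total 6 to 9, 0 to 5 and 2 to 4. Differences of DKO against WT that changed sign ranged in total H3K4me3 from −0.87 to 0.37 (Six2), −0.72 to 0.66 (Six4), −0.86 to 0.12 (Irx1), −0.46 to 0.66 (Irx2), −0.93 to 0.062 (Irx4), −0.65 to 0.59 (Irx3) and −0.63 to 0.48 (Irx5). In total H3K27me3 they ranged from −0.51 to 0.31 (Six3), −0.41 to 0.38 (Irx1), −0.49 to 0.23 (Irx2), −0.80 to 0.022 (Irx4), −0.19 to 0.51 (Irx3) and −0.44 to 0.37 (Irx5), in K4-K27 from −0.76 to 0.34 (Six4) and −0.81 to 0.13 (Irx5), and in K27-K4 from −0.99 to 0.043 (Irx5). Irx3 minus Irx5 in K4-K27 ranged from −0.048 to 0.038, and Six2 minus Six3 from −0.073 to 0.015 in K4-K27 and −0.026 to 0.012 in K27-K4. Other reversals were Irx2 in total H3K4me3 at the E14 region (−0.22) and Irx1 in total H3K27me3 at the DKO region (0.012). After subtracting IgG–IgG, Irx1 minus Irx4 became 1.95 in total H3K27me3, 0.068 in K4-K27 and 0.042 in K27-K4, and in total H3K4me3 Irx3 minus Irx6 became −1.29 and Irx5 minus Irx6 −0.67. Six2 minus Six3 in total H3K4me3 became −0.11 at E14 K27-K4 regions. Over E14 and WT libraries alone, Irx2 minus Irx4 became −0.034 and Irx3 minus Irx5 0.058 in K4-K27, Irx3 minus Irx5 0.010 in K27-K4, Irx3 minus Irx6 −0.16 in total H3K4me3 and Six2 minus Six3 0.024 in K4-K27.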
